A study of Mus musculus with 20 samples.

Results

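The genes described here form the mitosis and G2/M program of the mouse kidney, the set that a cell switches on to enter and complete division. The set holds 39 genes, chosen as the rows of the count table whose gene identifier belongs to a fixed list of mitotic symbols, and all 39 were found among the 55471 genes of the table. RNA of the whole kidney was sequenced from 20 female mice of 2 months of age, 1 library per mouse. In the injury experiment, mice on a Balb/c background that were TERT WT/WT or TERT KO/KO received 1 intravenous injection of Adriamycin (ADR, doxorubicin) at 12 mg/kg or of saline, and kidneys were taken 18 days later. This gave 4 TERT WT saline, 3 TERT WT ADR, 3 TERT KO saline and 3 TERT KO ADR libraries. The knockout is constitutive, so no cell type was targeted, and the TERT WT mice were littermates from the same backcross to BALB/c. In the i-TERTci experiment, mice of mixed background carried the actin-rtTA+ transgene alone (4 libraries) or with the tetOp-TERTci+ transgene (i-TERTci, 3 libraries), each transgene heterozygous. All 7 of these mice drank doxycycline at 2 mg/ml for 15 days and were killed 8 days after its withdrawal, so the controls had the drug and the transactivator too. The transactivator is driven widely across tissues, so TERTci, a catalytically inactive telomerase protein, was not restricted to a cell type. Background, treatment and experiment differ together between the experiments and cannot be told apart in a comparison of them.

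Entry into mitosis is driven by CDK1 bound to cyclin A or cyclin B. The transcription factors FOXM1 and B-MYB, with the MuvB complex, raise the genes of this program late in the cell cycle, and the DREAM complex represses the same genes in resting cells. Aurora and polo-like kinases then build the spindle, kinetochores tie chromosomes to it, the checkpoint holds the cell until every chromosome is attached, and the anaphase-promoting complex destroys securin and the cyclins so that sister chromatids part. Most tubule cells of the adult kidney are at rest, and podocytes rarely divide. These transcripts are therefore scarce in a healthy kidney, and in RNA of a whole organ a change in the number of dividing cells cannot be told apart from a change in RNA per cell.

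Totals ran from 39323498 to 48399322 counts per library, of which 1834 to 27573 fell on the 39 genes. The library labelled TERT KO ADR replicate 2 stood apart: 12 hepatocyte markers summed to 319500 CPM (counts scaled to library size) in it and to at most 624.5 CPM in any other library, while podocyte markers summed to 91.0 CPM against at least 175.4 CPM elsewhere. It was left out of the group means and fits, and some values with it kept are given below. Tert itself had 51 to 132 counts in the TERT KO saline libraries and 122 to 187 in the TERT WT saline libraries, counted over the whole gene, and the sources used here do not name the deleted part, so these counts do not check the genotype. Counts of Tert were 1070 in i-TERTci replicate 1, 1086 in replicate 2 and 230 in replicate 3, against 87 to 164 in the actin-rtTA+ libraries. Levels here and below are CPM scaled with TMM factors, except in TERT KO ADR replicate 2, whose levels are plain CPM without a TMM factor. Log2 fold changes and standard errors (SE) come from the edgeR quasi-likelihood F test. The words rise and fall are kept for genes whose p, adjusted over all genes tested, was under 0.05.

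Promoters of 4 of the genes are shown because the elements through which this program is known to be controlled can be read in them. The cell cycle genes homology region (TTTGAA, or TTCGAA) is the element bound by MuvB complexes, and CCAAT is bound by NF-Y, which cooperates with them. Each line gives the 180 bases before the RefSeq start on GRCm38.p6 (mm10), read toward the gene, with both elements on either strand in capitals. Read from the other strand, TTTGAA appears as TTCAAA. The reverse form of CCAAT is written ATTGG.
Cdk1, minus strand, chr10:69352913-69353092: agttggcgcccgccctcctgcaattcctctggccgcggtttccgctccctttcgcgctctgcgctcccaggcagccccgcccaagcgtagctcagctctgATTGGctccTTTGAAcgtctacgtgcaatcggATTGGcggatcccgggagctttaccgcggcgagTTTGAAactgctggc
Ccnb2, minus strand, chr9:70421555-70421734: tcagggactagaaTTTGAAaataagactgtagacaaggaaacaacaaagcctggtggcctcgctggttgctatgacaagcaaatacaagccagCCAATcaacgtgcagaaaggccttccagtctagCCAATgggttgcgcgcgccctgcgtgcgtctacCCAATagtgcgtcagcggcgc
Cdc20, minus strand, chr4:118437344-118437523: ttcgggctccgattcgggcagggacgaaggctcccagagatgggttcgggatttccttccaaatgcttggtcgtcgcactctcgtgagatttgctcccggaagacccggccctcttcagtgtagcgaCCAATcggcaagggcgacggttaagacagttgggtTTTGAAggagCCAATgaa
Ube2c, plus strand, chr2:164769749-164769928: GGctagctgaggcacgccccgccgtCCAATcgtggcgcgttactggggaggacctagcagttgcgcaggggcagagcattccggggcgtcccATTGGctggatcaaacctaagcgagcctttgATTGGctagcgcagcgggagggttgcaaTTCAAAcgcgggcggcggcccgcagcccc
The capitals that open the Ube2c stretch are the end of a CCAAT copy that begins before it. In Cdk1, copies of TTTGAA start at positions -71 and -15, counted from the base before the gene start as -1, and in Cdc20 and Ube2c the copies start at positions -18 and -29. In Ccnb2, TTTGAA lies farther away at position -167, and CCAAT copies start at positions -87, -54 and -21.

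Over the 33 of the 39 genes with a promoter entry, 12 (36.4%) held TTTGAA or TTCGAA in the 250 bases before the start, against 17.4% of all 27025 genes with an entry and 12.7% of the 12793 other genes that were expressed enough to test. CCAAT was in 25 (75.8%) of them, against 34.5% of all genes and 35.5% of the other tested genes, and 16 (48.5%) held 2 copies or more, against 10.5% and 12.5%. Both elements together were in 11 (33.3%), against 6.2% and 4.8%: Bub1b, Ckap2l, Ube2c, Ect2, Cdc20, Ncapg, Mki67, Ccnb2, Cdk1, Top2a and Kif11. Neither was in the windows of Nuf2, Nusap1, Melk, Anln, Pttg1, Birc5 and Ndc80. The forkhead letters GTAAACA were in 2 windows (6.1%, against 3.1% of all genes) and the E2F letters TTTCGCGC in 1 (3.0%, against 0.3%). A match describes letters only. Ect2 held both elements and did not rise in any comparison below, while Birc5 and Ndc80 held neither and rose after ADR.

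Summed over the 39 genes, the level was 49.1, 38.7, 52.5 and 59.5 CPM in the TERT WT saline kidneys (replicates 1 to 4) and 151.2, 385.9 and 265.5 CPM in the TERT WT ADR kidneys. In TERT KO mice it was 50.7, 56.8 and 58.5 CPM after saline and 187.4 and 396.9 CPM after ADR in replicates 1 and 3. The actin-rtTA+ kidneys had 96.0, 90.2, 108.7 and 116.2 CPM and the i-TERTci kidneys 460.2, 114.6 and 445.2 CPM. Every ADR kidney lay above every saline kidney of its genotype, and within each ADR group replicate 1 was the lowest. In the i-TERTci group the sum of replicate 2 lay within the range of the controls, and those of replicates 1 and 3 were well above it. Pttg1 alone gave 24.3 to 41.6 CPM of the control sums and 25.0 CPM of that of replicate 2. Taken gene by gene, replicate 2 was above all controls in 22 of the 39 genes and below all of them in 1. Its mean log2 level over the 39 genes was 0.891, against 0.278 to 0.716 in the controls.

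**Figure D1:**
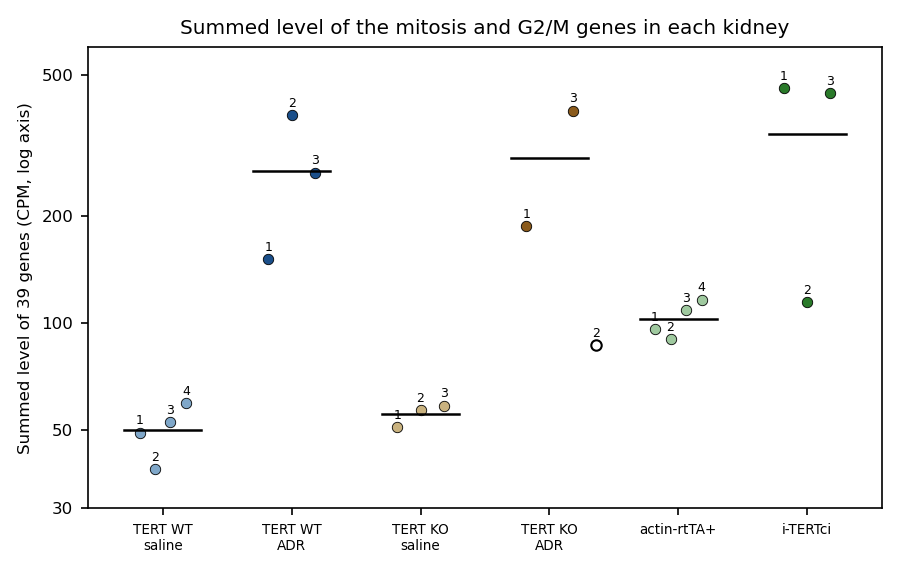
Summed level of the 39 genes in each kidney (CPM on a log axis) by group, with the replicate number above each point and a bar at the group mean. The open point is TERT KO ADR replicate 2 (86.4 CPM, plain CPM without a TMM factor), left out of its group mean. The other ADR kidneys lie at 151.2 CPM and above, and i-TERTci replicate 2 lies beside the actin-rtTA+ kidneys.

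ADR raised nearly the whole program in TERT WT kidneys. Of the 39 genes, 38 rose and none fell, with a median log2 fold change of 3.12 (8.69-fold), while the median of all 19023 genes tested was 0.01. Over all genes tested, 15.2% rose and 12.0% fell. For 38 genes every ADR library was above every saline library, which held for 17.4% of all genes. The exception was Ect2, and the largest rise was that of Prc1. Taken library by library against the saline mean, the median gene stood at 4.58-fold in replicate 1, 12.6-fold in replicate 2 and 8.64-fold in replicate 3. With TERT KO ADR replicate 2 kept in the fit, 36 of the 39 rose, against 4.1% of all genes.

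In TERT KO kidneys ADR raised 36 of the 39 genes and lowered none, with a median log2 fold change of 2.98 (7.88-fold). Over all genes tested, 3.83% rose and 1.43% fell. In 38 genes both ADR libraries were above every saline library, as in 21.2% of all genes. The genes that did not pass were Cenpa (adjusted p = 0.063), Pttg1 (0.099) and Ect2 (0.968). The median gene stood at 4.78-fold of the saline mean in replicate 1 and at 10.6-fold in replicate 3. The count rests on few mice: it was 22 without TERT KO ADR replicate 3, 23 without TERT KO saline replicate 1, and 23 without TERT KO saline replicate 3. With the liver-like replicate 2 kept it was 30, against 1.32% of all genes.

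No gene of the set differed between the genotypes in the edgeR test. In saline kidneys the median log2 difference of TERT KO from TERT WT was 0.25, with a range from -0.26 to 1.00, and none of the 39 was called (0.00526% of all genes were). At an unadjusted p under 0.05 only Plk1 stood out (1 of 39, against 8.79% of all genes), and DESeq2 called none (0.116% of all genes). After ADR the median difference was 0.16, with a range from -0.26 to 0.57, and none of the 39 was called (0.0736% of all genes), none had an unadjusted p under 0.05 (7.66%) and DESeq2 called none (0.725%). The median was -0.46 without TERT KO ADR replicate 3, -0.11 without TERT WT ADR replicate 1 and 0.57 without TERT KO ADR replicate 1. In saline kidneys every TERT KO library was above every TERT WT library in 2 of the 39 genes, Cenpe and Birc5, chosen here for that pattern, against 6.48% of all genes. After ADR the libraries of the genotypes overlapped in all 39.

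The ADR effect itself was then compared between genotypes. Its log2 difference, TERT KO minus TERT WT, had a median of -0.10 over the 39 genes and ran from -1.06 (Plk1) to 0.60 (Ect2), and none of the 39 was called (0.0% of all genes). None reached an unadjusted p under 0.05 (12.0% of all genes did), and DESeq2 called none (0.725%). For Mki67 the difference was -0.03 (SE 0.64, adjusted p = 0.991) and for Plk1 it was -1.06 (SE 0.63, adjusted p = 0.488). With SEs of this size, a difference of 2-fold between genotypes in the response of a single gene was not resolved. The sign of the median was not stable to leaving out a mouse: it was -0.73 without TERT KO ADR replicate 3, 0.39 without TERT KO ADR replicate 1, 0.28 without TERT WT ADR replicate 2 and 0.04 without TERT WT saline replicate 2.

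In i-TERTci kidneys 38 of the 39 genes had a positive log2 fold change against actin-rtTA+ kidneys, with a median of 2.48 (5.59-fold), against a median of 0.02 over all 17745 genes tested. None passed the edgeR test at an adjusted p under 0.05 (0.00564% of all genes were higher and 0.0% lower). At an unadjusted p under 0.05 were 37, against 22.4% of all genes, and the smallest adjusted p among the 39 was 0.0758. DESeq2 called 37 of the 39 higher, against 8.52% of all genes. Without i-TERTci replicate 2, edgeR called 37 of the 39 higher, against 15.1% of all genes. In 22 genes all 3 i-TERTci libraries were above all 4 controls (8.55% of all genes). Against the control mean the median gene stood at 7.97-fold in replicate 1, 1.40-fold in replicate 2 and 7.81-fold in replicate 3. The order did not follow Tert, which was at 17.9, 28.4 and 4.33 CPM in replicates 1, 2 and 3.

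**Figure D2:**
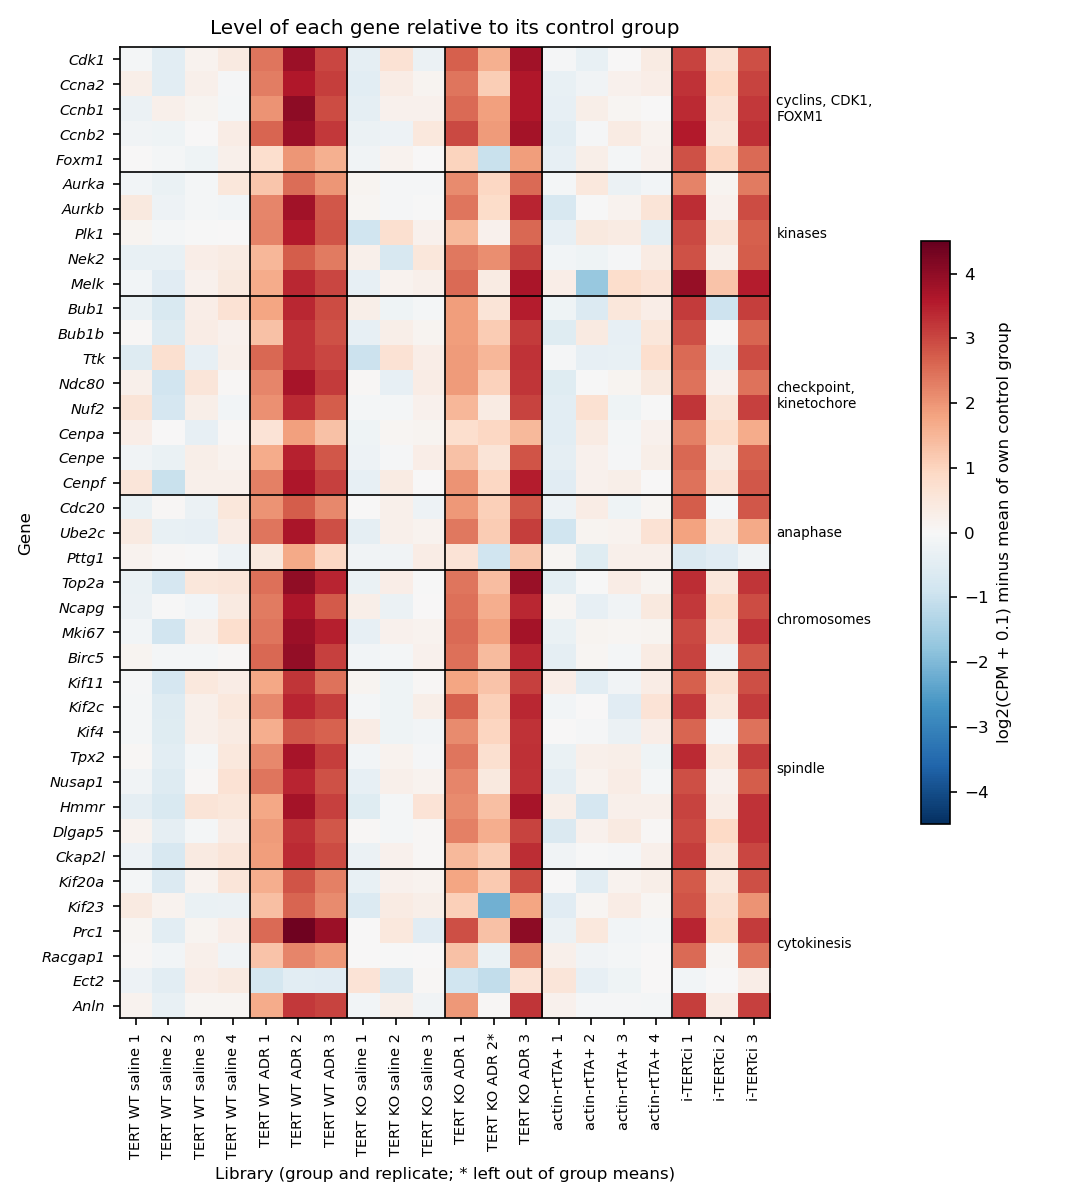
Level of each of the 39 genes (rows, grouped by role) in each of the 20 libraries (columns), as log2(CPM + 0.1) minus the mean of the library's own control group, with an asterisk at TERT KO ADR replicate 2. The column with the asterisk was computed from plain CPM without a TMM factor. Red marks higher levels: the ADR libraries and i-TERTci replicates 1 and 3 are red in nearly every row, i-TERTci replicate 2 is pale, and Ect2 and Pttg1 stand out from the other rows.

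CDK1, the kinase that starts mitosis, its cyclins and FOXM1 come first in the order of the program, and all 5 rose in both ADR comparisons. Cdk1 was at 0.769, 0.570, 0.928 and 1.14 CPM in the TERT WT saline kidneys and at 4.85, 13.1 and 7.36 CPM after ADR. In TERT KO it was at 0.671, 1.49 and 0.742 CPM after saline and 6.42 and 13.8 CPM after ADR, and in the i-TERTci experiment at 1.53, 1.24, 1.62 and 2.08 CPM in controls and 13.7, 2.59 and 12.6 CPM in i-TERTci kidneys. Within each genotype the ADR and saline values did not overlap, and i-TERTci replicate 2 was just above its controls. The log2 fold change of Cdk1 was 3.32 (SE 0.41, adjusted p = 0.000848) in TERT WT, 3.39 (SE 0.48, adjusted p = 0.00456) in TERT KO and 2.60 (SE 0.51, adjusted p = 0.0758) in i-TERTci kidneys.

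Ccnb1, which encodes cyclin B1, the main activating partner of CDK1, had the largest rise of its group in TERT WT. Its levels were 0.271, 0.422, 0.376 and 0.310 CPM after saline and 1.70, 7.05 and 3.27 CPM after ADR in TERT WT, and 0.301, 0.506 and 0.495 CPM against 2.99 and 6.24 CPM in TERT KO. The log2 fold changes were 3.53 (SE 0.46, adjusted p = 0.00093) and 3.42 (SE 0.53, adjusted p = 0.00605). Ccnb1 was at 0.438, 0.723, 0.636 and 0.594 CPM in controls and 6.99, 0.993 and 6.18 CPM in i-TERTci kidneys, a log2 fold change of 3.01 (SE 0.59, adjusted p = 0.0758). Ccnb2, the second B-type cyclin, moved in the same way. It went from 0.566, 0.549, 0.663 and 0.853 CPM to 4.52, 10.7 and 6.66 CPM in TERT WT and from 0.486, 0.506 and 0.880 CPM to 5.39 and 9.43 CPM in TERT KO kidneys, with log2 fold changes of 3.48 (SE 0.34, adjusted p = 0.000551) and 3.57 (SE 0.40, adjusted p = 0.00236). Its levels were 0.634, 0.878, 1.22 and 1.04 CPM in actin-rtTA+ and 11.9, 1.36 and 9.82 CPM in i-TERTci kidneys. Ccna2, encoding cyclin A2, rose by 3.15 (SE 0.36, adjusted p = 0.000712) on the log2 scale in TERT WT and by 3.16 (SE 0.42, adjusted p = 0.00406) in TERT KO. A share of 12.5% of its exon bases overlaps Exosc9 on the other strand, and whether the counting used strand is not given in the sources used here.

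Foxm1, the transcription factor of the program, had the smallest rise of this group. It was at 3.69, 3.46, 3.20 and 4.32 CPM in TERT WT saline kidneys and 6.19, 14.6 and 11.4 CPM after ADR, and at 3.54, 4.36 and 3.93 CPM and 8.00 and 14.6 CPM in TERT KO. Its level in CPM was already higher than that of Cdk1 in every saline library, and compared per kilobase of exon Foxm1 had rank 4 and Cdk1 rank 19 of the 39 genes in TERT WT saline kidneys. The log2 fold changes were 1.56 (SE 0.27, adjusted p = 0.00274) and 1.52 (SE 0.32, adjusted p = 0.0209) after ADR. Foxm1 went from 2.04, 3.23, 2.54 and 3.10 CPM in actin-rtTA+ kidneys to 20.0, 5.28 and 16.3 CPM in i-TERTci kidneys, where replicate 2 was also above all 4 controls, a log2 fold change of 2.37 (SE 0.41, adjusted p = 0.0758).

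The mitotic kinases, 5 genes, all rose in both ADR comparisons. Aurkb, the kinase of the chromosomal passenger complex, had the largest rise among them in TERT WT, from 0.633, 0.359, 0.398 and 0.388 CPM to 2.37, 7.21 and 3.57 CPM in TERT WT and from 0.625, 0.563 and 0.577 CPM to 3.59 and 7.24 CPM in TERT KO kidneys. The log2 fold changes were 3.30 (SE 0.39, adjusted p = 0.000759) and 3.20 (SE 0.45, adjusted p = 0.00456). In actin-rtTA+ kidneys it was at 0.481, 0.852, 0.989 and 1.36 CPM and in i-TERTci kidneys at 9.50, 1.02 and 7.25 CPM, where replicate 2 lay inside the range of the controls. Aurka, the centrosomal Aurora kinase, had the smallest rise in TERT WT, from 0.882, 0.781, 0.906 and 1.45 CPM to 2.44, 6.06 and 4.19 CPM with a log2 fold change of 2.08 (SE 0.30, adjusted p = 0.00144). In TERT KO it went from 1.06, 0.928 and 0.935 CPM to 4.55 and 6.19 CPM with 2.46 (SE 0.36, adjusted p = 0.00573). Aurka was at 1.12, 1.70, 0.989 and 1.10 CPM in actin-rtTA+ and 6.01, 1.33 and 6.46 CPM in i-TERTci kidneys, where replicate 2 lay inside the controls.

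Plk1, polo-like kinase 1, which drives spindle assembly and mitotic exit, had the largest log2 difference between the genotypes in saline kidneys, which did not pass the test. It was at 1.02, 0.865, 0.906 and 0.931 CPM in TERT WT saline kidneys, tightly grouped, and at 0.856, 2.81 and 1.95 CPM in TERT KO saline kidneys, where replicates 2 and 3 were above all TERT WT values and replicate 1 was below them. That gave a log2 difference of 1.00 (SE 0.42, adjusted p = 0.566). After ADR it was at 4.78, 12.2 and 7.22 CPM in TERT WT and 4.79 and 10.7 CPM in TERT KO, so the ADR log2 fold changes were 3.12 (SE 0.41, adjusted p = 0.00096) and 2.05 (SE 0.47, adjusted p = 0.028). Plk1 was at 1.16, 2.14, 2.02 and 1.10 CPM in actin-rtTA+ and 12.9, 2.27 and 10.5 CPM in i-TERTci kidneys. Nek2, a centrosome kinase, rose by 2.36 (SE 0.37, adjusted p = 0.00177) in TERT WT and 2.79 (SE 0.43, adjusted p = 0.00605) in TERT KO on the log2 scale. Melk, a kinase of dividing progenitor-like cells, rose by 3.22 (SE 0.47, adjusted p = 0.00144) and 3.61 (SE 0.56, adjusted p = 0.00605), and its difference in i-TERTci kidneys was the largest of the 39 genes, 3.40 (SE 0.87, adjusted p = 0.0876), with actin-rtTA+ replicate 2 at no count.

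Of the checkpoint and kinetochore genes, all 8 rose in TERT WT and 7 in TERT KO after ADR. Ndc80, which anchors microtubules at the kinetochore, had the largest log2 fold change of this group in TERT WT, 3.78 (SE 0.56, adjusted p = 0.00156). It was at 0.158, 0.0211, 0.221 and 0.129 CPM after saline and 0.908, 2.76 and 1.82 CPM after ADR. In TERT KO it went from 0.185, 0.113 and 0.247 CPM to 0.940 and 2.48 CPM, a log2 fold change of 3.22 (SE 0.65, adjusted p = 0.0176). The i-TERTci experiment gave 0.263, 0.413, 0.471 and 0.615 CPM in controls and 2.74, 0.497 and 2.79 CPM in i-TERTci kidneys. Cenpa, the histone H3 variant that marks centromeres, had the smallest rise. Its levels went from 2.08, 1.73, 1.28 and 1.76 CPM to 2.63, 6.38 and 4.39 CPM in TERT WT, a log2 fold change of 1.39 (SE 0.29, adjusted p = 0.00631). In TERT KO they were 1.78, 2.17 and 2.25 CPM after saline and 3.55 and 5.86 CPM after ADR, 1.19 (SE 0.34, adjusted p = 0.0628), which did not pass although the libraries did not overlap. The i-TERTci kidneys had 8.36, 2.88 and 5.45 CPM against 1.14, 2.14, 1.53 and 1.91 CPM in controls, and replicate 2 was above all controls.

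The other members of the group were the checkpoint kinases Bub1, Bub1b (BUBR1) and Ttk (MPS1), the Ndc80 partner Nuf2 and the kinetochore proteins Cenpe, a motor, and Cenpf. In TERT WT their log2 fold changes ran from 2.98 (Bub1b) to 3.59 (Ttk). In TERT KO they ran from 2.36 (Cenpe) to 3.35 (Bub1). In Bub1 i-TERTci replicate 2, at 0.105 CPM, was below all 4 controls, which were at 0.241, 0.155, 0.447 and 0.382 CPM.

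The 3 anaphase genes differed widely among themselves. Cdc20, the activator of the anaphase-promoting complex, went from 1.22, 1.56, 1.26 and 2.17 CPM after saline to 6.46, 10.7 and 7.06 CPM after ADR in TERT WT and from 1.57, 1.86 and 1.32 CPM to 6.42 and 11.5 CPM in TERT KO kidneys. The log2 fold changes were 2.38 (SE 0.27, adjusted p = 0.000712) and 2.50 (SE 0.32, adjusted p = 0.0039). In the i-TERTci experiment it was at 1.51, 2.27, 1.53 and 1.87 CPM in controls and 12.3, 1.73 and 12.8 CPM in i-TERTci kidneys, with replicate 2 inside the controls. Ube2c, the ubiquitin-conjugating enzyme of the complex, rose from 1.97, 1.14, 1.13 and 1.89 CPM to 8.22, 20.1 and 11.8 CPM in TERT WT, a log2 fold change of 3.14 (SE 0.33, adjusted p = 0.000647). In TERT KO it rose from 1.39, 2.22 and 2.09 CPM to 10.2 and 16.9 CPM, 2.84 (SE 0.39, adjusted p = 0.00406). The mixed-background controls started higher, at 3.59, 7.46, 7.58 and 10.6 CPM, and the i-TERTci kidneys were at 24.3, 9.52 and 22.3 CPM, a log2 fold change of 1.38 (SE 0.40, adjusted p = 0.104). Exon bases of Ube2c overlap Tnnc2 on the other strand (22.8% of them).

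Pttg1 encodes securin, the inhibitor of separase that anaphase destroys. It rose least of the 38 genes called in TERT WT, from 4.07, 3.78, 3.53 and 3.08 CPM to 4.85, 12.0 and 6.94 CPM, a log2 fold change of 1.14 (SE 0.27, adjusted p = 0.0109). In TERT KO it was at 3.68, 3.63 and 5.14 CPM after saline and 6.39 and 9.57 CPM after ADR, 0.95 (SE 0.32, adjusted p = 0.0991). In the mixed-background mice it was far higher in controls, at 38.3, 24.3, 41.6 and 41.5 CPM, and the i-TERTci kidneys, at 22.6, 25.0 and 31.9 CPM, overlapped them. The log2 fold change there was -0.44 (SE 0.21, adjusted p = 0.256), the only negative value of the 39 genes in that comparison. The ratio of the actin-rtTA+ mean to the TERT WT saline mean was 10.1 for Pttg1 and 4.78 for Ube2c, with a median of 1.72 over the 39 genes and the lowest ratio at 0.743 (Foxm1). Strain and doxycycline differ together in that ratio.

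**Figure D3:**
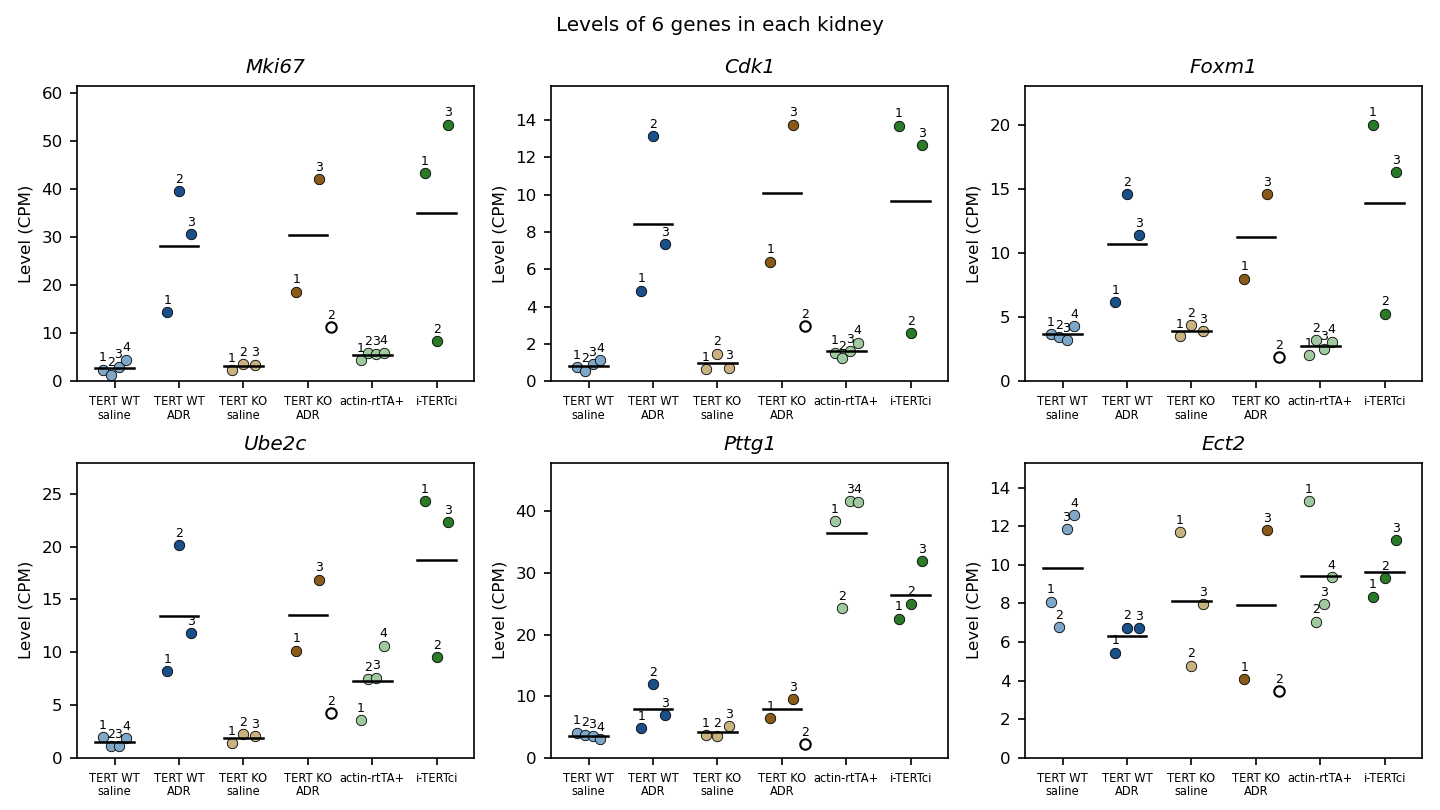
Levels (CPM) of 6 genes in each kidney, with the replicate number above each point, bars at the group means, and TERT KO ADR replicate 2 as an open point outside its mean. The open point is plain CPM without a TMM factor. Mki67, Cdk1 and Foxm1 are high in the ADR kidneys and in i-TERTci replicates 1 and 3, Ube2c and Pttg1 start higher in actin-rtTA+ kidneys, and Ect2 shows no rise.

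The genes of chromosome structure and proliferation rose together, 4 of 4 in both ADR comparisons. Mki67 encodes Ki-67, which coats mitotic chromosomes and is the standard marker of cycling cells. It was at 2.44, 1.41, 3.07 and 4.5 CPM in TERT WT saline kidneys and 14.3, 39.6 and 30.7 CPM after ADR, and at 2.36, 3.54 and 3.46 CPM and 18.7 and 42.1 CPM in TERT KO kidneys. The ADR and saline values did not overlap within either genotype. The log2 fold changes were 3.32 (SE 0.42, adjusted p = 0.00096) and 3.29 (SE 0.50, adjusted p = 0.00605). In actin-rtTA+ kidneys Mki67 was at 4.38, 5.94, 5.77 and 5.96 CPM and in i-TERTci kidneys at 43.3, 8.34 and 53.5 CPM, where replicate 2 was above the controls and far below the other two. The log2 fold change was 2.69 (SE 0.52, adjusted p = 0.0758).

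Top2a, topoisomerase II alpha, untangles sister chromatids and is the enzyme that doxorubicin poisons. It went from 1.04, 0.718, 1.90 and 1.94 CPM to 7.60, 22.1 and 15.1 CPM in TERT WT and from 1.32, 2.03 and 1.62 CPM to 9.09 and 25.3 CPM in TERT KO kidneys. The log2 fold changes were 3.43 (SE 0.46, adjusted p = 0.00116) and 3.38 (SE 0.53, adjusted p = 0.0069), and the controls of the i-TERTci experiment, at 1.97, 2.68, 3.39 and 2.92 CPM, faced i-TERTci values of 27.7, 3.84 and 25.8 CPM. Birc5, survivin, a subunit of the chromosomal passenger complex, had the smallest p of the 39 genes in TERT WT. It was at 0.520, 0.443, 0.442 and 0.491 CPM after saline and 3.35, 8.69 and 4.69 CPM after ADR, 3.55 (SE 0.34, adjusted p = 0.000551). In TERT KO its values were 0.625, 0.647 and 0.797 CPM and 4.24 and 8.19 CPM, 3.17 (SE 0.39, adjusted p = 0.00281). The i-TERTci kidneys had 10.5, 1.05 and 8.88 CPM and their controls 0.875, 1.26, 1.11 and 1.57 CPM, with replicate 2 inside the controls. Ncapg, a condensin subunit, had the largest log2 fold change of the group, 3.71 (SE 0.43, adjusted p = 0.000716) in TERT WT and 3.50 (SE 0.49, adjusted p = 0.00456) in TERT KO. It went from 0.0905, 0.127, 0.110 and 0.207 CPM to 1.05, 2.76 and 1.45 CPM in TERT WT and from 0.255, 0.141 and 0.192 CPM to 1.52 and 3.00 CPM in TERT KO. In actin-rtTA+ and i-TERTci kidneys it was at 0.328, 0.206, 0.259 and 0.445 CPM and 3.50, 0.601 and 3.00 CPM. Its exons overlap Lcorl on the other strand over 13.4% of their bases.

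All 8 spindle motors and microtubule-associated proteins rose in both ADR comparisons, by similar amounts. In TERT WT their log2 fold changes ran from 2.68 (Kif4) to 3.33 (Kif2c), and in TERT KO from 2.74 (Kif11) to 3.43 (Kif2c). Kif2c, the microtubule depolymerase MCAK, went from 0.249, 0.148, 0.331 and 0.414 CPM to 1.58, 3.88 and 3.10 CPM in TERT WT and from 0.278, 0.253 and 0.385 CPM to 2.47 and 4.12 CPM in TERT KO kidneys. In the i-TERTci experiment it was at 0.372, 0.413, 0.259 and 0.678 CPM in controls and 4.57, 0.601 and 4.39 CPM in i-TERTci kidneys. Kif4, a chromosome-bound motor, went from 0.385, 0.253, 0.508 and 0.569 CPM to 1.51, 3.50 and 3.15 CPM in TERT WT and from 0.648, 0.422 and 0.440 CPM to 2.49 and 5.63 CPM in TERT KO. Its i-TERTci values were 5.56, 0.784 and 4.88 CPM against 0.831, 0.774, 0.659 and 1.04 CPM, and 15.1% of its exon bases overlap Pdzd11 on the other strand. The rest of the group, Kif11 (the bipolar spindle motor Eg5), Tpx2 (the activator of Aurora A), Nusap1, Hmmr, Dlgap5 and Ckap2l, lay between these in TERT WT. In i-TERTci kidneys the log2 fold changes of the 8 genes ran from 2.20 (Kif4) to 2.90 (Kif2c).

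In the cytokinesis group 5 of 6 genes rose in each ADR comparison. Prc1, which bundles the central spindle, had the largest log2 fold change of all 39 genes, 3.92 (SE 0.44, adjusted p = 0.000712) in TERT WT and 3.65 (SE 0.51, adjusted p = 0.00456) in TERT KO. It went from 0.769, 0.485, 0.795 and 0.905 CPM to 4.76, 17.0 and 11.7 CPM in TERT WT and from 0.879, 1.24 and 0.577 CPM to 7.00 and 15.6 CPM in TERT KO kidneys. In the i-TERTci experiment it was at 1.40, 2.43, 1.58 and 1.59 CPM in controls and 19.2, 3.16 and 15.8 CPM in i-TERTci kidneys. Overlap with Rccd1 on the other strand covers 11.1% of its exon bases. Anln (anillin, the scaffold of the contractile ring) and Kif20a (a central spindle motor) rose by 2.89 (SE 0.38, adjusted p = 0.00093) and 2.32 (SE 0.35, adjusted p = 0.00161) in TERT WT on the log2 scale. Kif20a shares 29.3% of its exon bases with Cdc23 on the other strand. The centralspindlin genes Kif23 and Racgap1 rose less, by 2.13 (SE 0.32, adjusted p = 0.0016) and 1.90 (SE 0.24, adjusted p = 0.00093) in TERT WT and by 1.43 (SE 0.37, adjusted p = 0.0464) and 1.88 (SE 0.29, adjusted p = 0.00605) in TERT KO.

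Ect2, the exchange factor that activates RhoA at the cleavage furrow and works with centralspindlin, did not follow the others. It was at 8.10, 6.78, 11.9 and 12.6 CPM in TERT WT saline kidneys and 5.45, 6.74 and 6.72 CPM after ADR, all below the saline values, a log2 fold change of -0.63 (SE 0.37, adjusted p = 0.211). In TERT KO its values were 11.7, 4.78 and 7.97 CPM after saline and 4.08 and 11.8 CPM after ADR, with no order, -0.04 (SE 0.43, adjusted p = 0.968). In actin-rtTA+ kidneys it was at 13.3, 7.05, 7.96 and 9.37 CPM and in i-TERTci kidneys at 8.35, 9.31 and 11.3 CPM, 0.05 (SE 0.23, adjusted p = 0.919). Per kilobase of exon, Ect2 was the most abundant of the 39 genes in TERT WT saline kidneys, at 1.82 CPM per kilobase, and ranked 21 of 39 in TERT WT ADR kidneys, at 1.17. Ube2c went the other way, from rank 5 (0.589 CPM per kilobase) to rank 1 (5.16).

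**Figure D4:**
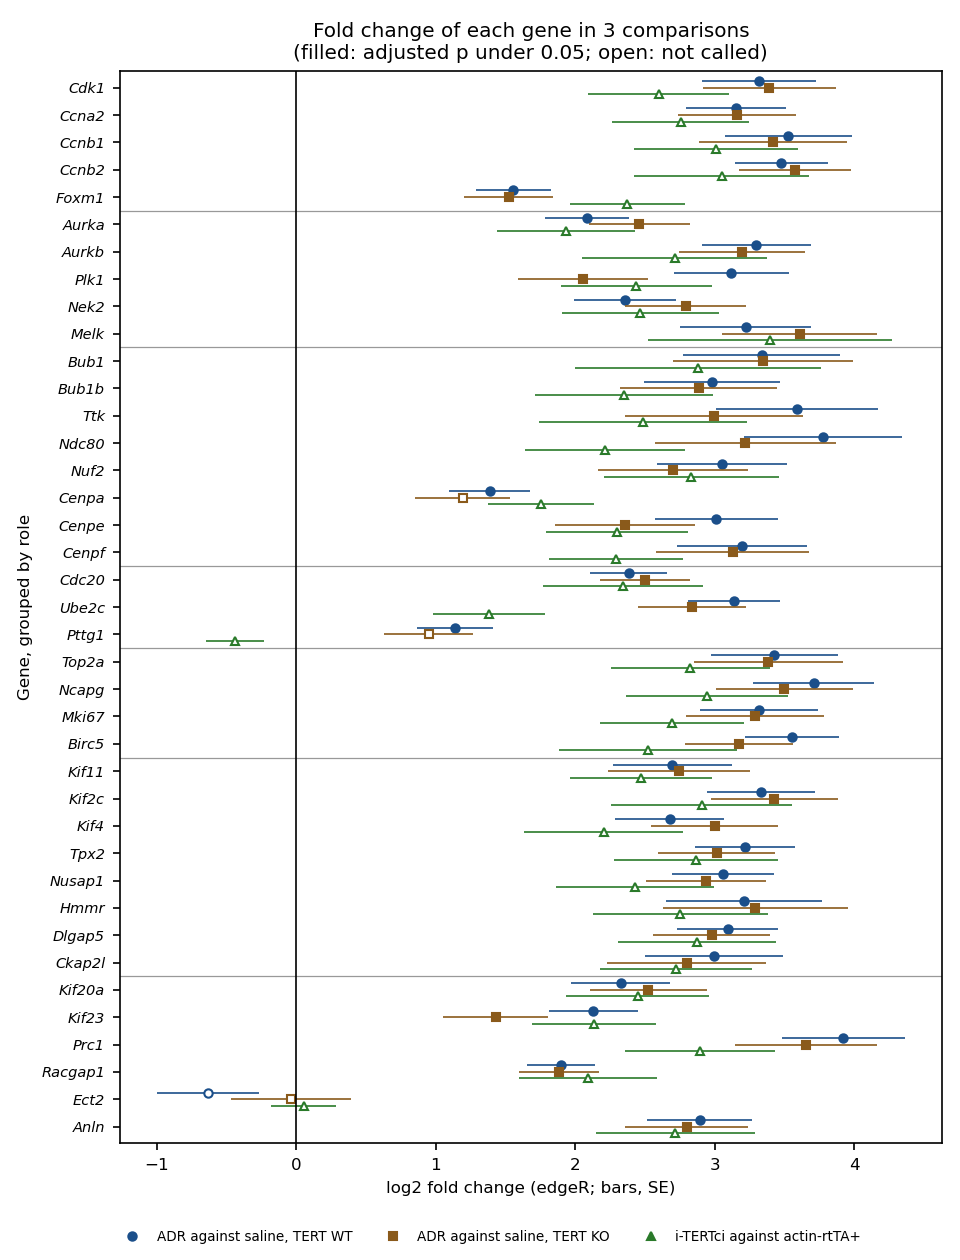
Log2 fold change of each of the 39 genes with its SE (horizontal bars), for ADR against saline in TERT WT (circles) and TERT KO (squares) and for i-TERTci against actin-rtTA+ (triangles), grouped by role, with filled symbols where the adjusted p was under 0.05. Circles and squares lie close together in most rows, i-TERTci symbols are open throughout, and for ADR in TERT WT the values of Ect2, Pttg1, Cenpa and Foxm1 are the lowest.

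The ADR response in TERT WT was also set against the i-TERTci response, each relative to its own controls. The log2 difference, ADR minus i-TERTci, had a median of 0.47 over the 39 genes and none was called by edgeR (0.00505% of all genes were). At an unadjusted p under 0.05 were 2 of 39, against 7.16% of all genes. These were Ube2c, at 1.78 (SE 0.55, adjusted p = 0.467), and Pttg1, at 1.60 (SE 0.37, adjusted p = 0.239), the genes with the highest levels in actin-rtTA+ relative to TERT WT saline kidneys. DESeq2 called 1 gene, Pttg1, at an adjusted p of 0.0153, against 0.303% of all genes. For Mki67 the difference was 0.64 (SE 0.70, adjusted p = 0.867). The median was -0.04 without i-TERTci replicate 2 and 0.04 without TERT WT ADR replicate 2, and without TERT WT ADR replicate 1 edgeR also called 1 gene.

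Genes outside the 39 were taken from lists by function. Over all genes tested after ADR, 15.2% rose and 12.0% fell in TERT WT and 3.83% rose in TERT KO. Of 48 other mitotic genes, 40 rose in TERT WT and 35 in TERT KO after ADR, with median log2 fold changes of 2.31 and 2.05. On the log2 scale in TERT WT, Gtse1, a regulator of G2, rose by 2.87 (SE 0.34, adjusted p = 0.000716), Zwilch, a kinetochore protein of the checkpoint, by 2.46 (SE 0.31, adjusted p = 0.000857) and Tacc3, which stabilises spindle microtubules, by 1.86 (SE 0.24, adjusted p = 0.00093). In i-TERTci kidneys 46 of 48 were positive, with a median of 1.87. By edgeR on all 7 libraries none passed and 39 had an unadjusted p under 0.05 (22.4% of all genes). DESeq2 called 34 higher (8.52% of all genes), and edgeR without i-TERTci replicate 2 called 41 (15.1%). Of 40 S-phase genes, which copy DNA before mitosis, 31 rose and 1 fell in TERT WT and 26 rose in TERT KO, with smaller medians of 0.80 and 0.96. Uhrf1, which maintains methylation at replication, rose by 2.89 (SE 0.28, adjusted p = 0.000554), and the replicative helicase subunits Mcm6 and Mcm5 by 2.32 (SE 0.24, adjusted p = 0.000647) and 1.12 (SE 0.12, adjusted p = 0.000712) in TERT WT.

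The mean level of the 39 genes, as log2(CPM + 0.1), was set against that of the S-phase list in each library. The difference, mitosis minus S phase, was -2.51 to -1.89 log2 units in TERT WT saline kidneys and -1.03, -0.17 and -0.52 in TERT WT ADR kidneys, so the gap was smaller in every ADR kidney. In TERT KO it was -2.22 to -1.90 after saline and -1.04 and -0.28 after ADR. In the i-TERTci experiment it was -1.82 to -1.50 in controls and -0.19, -1.24 and -0.17 in i-TERTci replicates 1, 2 and 3. Lengths and base levels of the lists differ, so the gap within a group cannot be read. In TERT WT saline kidneys the mean was -0.55 to 0.09 for the 39 genes and 1.93 to 1.98 for the S-phase list. The change of the gap between groups also depends on these base levels and on the offset of 0.1. Their part in it was not tested.

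**Figure D5:**
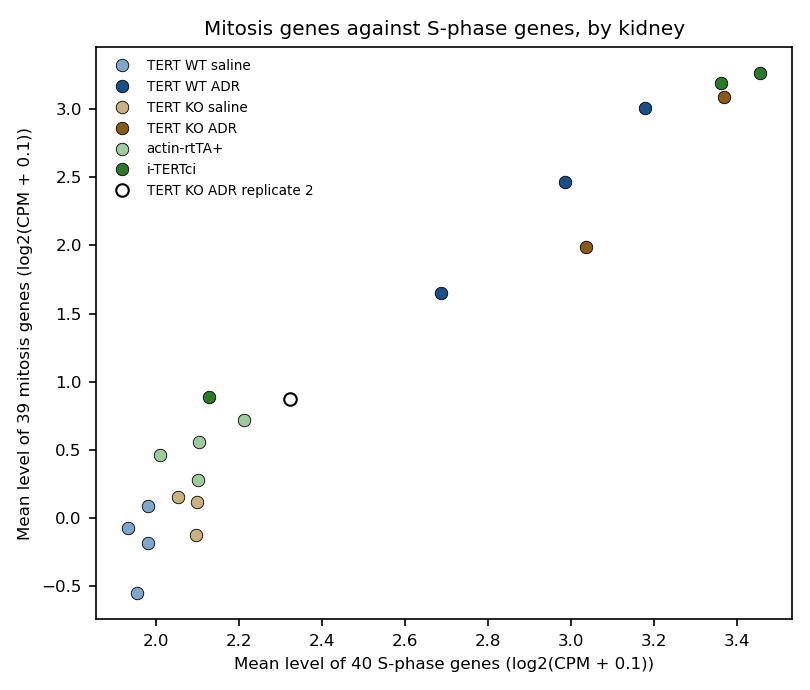
Mean level of the 39 mitosis genes (vertical) against that of 40 S-phase genes (horizontal), both as log2(CPM + 0.1), 1 point per kidney, coloured by group. Saline and actin-rtTA+ kidneys lie at S-phase means of 1.93 to 2.21, the other ADR kidneys and i-TERTci replicates 1 and 3 at 2.69 to 3.46, i-TERTci replicate 2 at 2.13, and the open point is TERT KO ADR replicate 2. That point was computed from plain CPM without a TMM factor.

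Of 22 genes for DREAM, MuvB, E2F and NF-Y proteins, 6 rose and 4 fell in TERT WT and 3 rose in TERT KO, beside the 15.2% of all genes that rose and 12.0% that fell in TERT WT and the 3.83% that rose in TERT KO. The atypical E2F repressors E2f8 and E2f7 rose by 3.28 (SE 0.43, adjusted p = 0.00093) and 2.19 (SE 0.40, adjusted p = 0.0035) in TERT WT. Mybl2, encoding B-MYB, rose in TERT WT by 1.38 (SE 0.29, adjusted p = 0.0063) and was at 0.36 (SE 0.35, adjusted p = 0.552) in TERT KO. Neither Mybl2 nor any other of the 22 was called for the difference of the ADR effects between genotypes (0.0% of all genes were called). Of 17 core subunits and regulators of the anaphase-promoting complex, 3 rose in TERT WT, a share near that of all genes. None passed in TERT KO by edgeR or DESeq2, with 2 at an unadjusted p under 0.05 in edgeR. Of all 19023 genes 4587 had such a p there, a larger share. The largest rise in TERT WT was Fbxo5, encoding the inhibitor EMI1, at 1.04 (SE 0.23, adjusted p = 0.00853) in TERT WT. Of 9 G1 cyclin and kinase genes, 3 rose in TERT WT (Cdk4, Cdk2 and Cdk6) and 1 in TERT KO (Cdk2). Cell cycle inhibitors and p53 targets rose too, 10 of 18 in TERT WT and 8 in TERT KO. Cdkn1a, encoding the CDK inhibitor p21, rose by 3.21 (SE 0.38, adjusted p = 0.000857) in TERT WT and by 3.83 (SE 0.46, adjusted p = 0.00313) in TERT KO kidneys. In i-TERTci kidneys edgeR on all 7 libraries called none of the 40, 22, 17, 9 and 17 tested genes in the S-phase, DREAM, anaphase-promoting complex, G1 and inhibitor lists. There 29, 7, 0, 3 and 8 had an unadjusted p under 0.05, against 22.4% of all genes. DESeq2 called 18, 3, 0, 1 and 5 of them higher, against 8.52% of all genes. Without i-TERTci replicate 2, edgeR called 34, 6, 1, 3 and 9 higher, against 15.1% of all genes. It called 1 S-phase gene lower, against 1548 of all 18358 genes tested. In the DREAM, anaphase-promoting complex and G1 lists the counts are near those shares or differ from them by few genes.

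Markers of kidney cell types differed in the same libraries. In TERT WT after ADR, 11 of 11 injured tubule markers rose, and their summed level was 1753 to 1862 CPM in TERT WT saline, 4622 to 22490 in TERT WT ADR, 1664 to 1967 in TERT KO saline, 7532 to 13220 in TERT KO ADR, 1871 to 2099 in actin-rtTA+ and 1964 to 17000 CPM in i-TERTci kidneys. The lowest values of the ADR and i-TERTci groups were those of replicate 1, replicate 1 and replicate 2, the same libraries in which the mitosis genes were lowest. Macrophage and myeloid markers rose in 13 of 15 cases in TERT WT (15.2% of all genes) and in 4 of 15 in TERT KO (3.83%). In TERT KO 11 of the 15 had an unadjusted p under 0.05 in edgeR, and DESeq2 called 9 higher. Over all 19023 genes there, 4587 had such a p in edgeR and DESeq2 called 1341 higher. These 15 markers had no call for the difference of the ADR effects between genotypes (0.0% of all genes were called). Their sums were 195.5 to 254.9 CPM in TERT WT saline, 404.7 to 987.1 in TERT WT ADR, 200.6 to 246.0 in TERT KO saline, 237.1 to 739.7 in TERT KO ADR, 175.1 to 261.5 in actin-rtTA+ and 264.7 to 1788 CPM in i-TERTci kidneys. Fibroblast markers rose in 6 and fell in 1 of 10 cases in TERT WT, with sums of 423.1 to 482.4, 738.4 to 1455, 466.9 to 514.9, 863.6 to 1573, 516.8 to 676.5 and 835.4 to 3398 CPM in the same order of groups.

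In TERT WT after ADR, most podocyte and proximal tubule markers fell. Of 8 podocyte markers 6 fell in TERT WT and 2 in TERT KO, against 12.0% and 1.43% of all genes. The podocyte markers had no call for the difference of the ADR effects between genotypes. Their sums were 654.9 to 735.5, 175.4 to 562.3, 603.4 to 676.6, 328.5 to 494.3, 616.3 to 812.1 and 274.7 to 1283 CPM in that order. Of 8 proximal tubule markers 5 fell in TERT WT. In TERT KO none passed by edgeR, 5 had an unadjusted p under 0.05 and DESeq2 called 4 lower. Over all 19023 genes there, 4587 had an unadjusted p under 0.05 in edgeR and DESeq2 called 855 lower. The sums were of 11870 to 15030, 2893 to 10130, 10790 to 13460, 5243 to 6977, 13730 to 16600 and 2855 to 13310 CPM. Among the other lists, tested in TERT WT after ADR, 6 of 8 erythroid markers rose and 1 fell, 4 of 8 endothelial and 3 of 10 distal and collecting duct markers fell, 2 of 7 B and plasma cell, 1 of 8 T and NK cell, 1 of 4 neutrophil and 3 of 10 hepatocyte markers rose. Over all genes tested 15.2% rose and 12.0% fell, so the counts of 1 or 2 markers are near that share or differ from it by few genes. The neutrophil markers Mpo and Elane had no count in any saline or actin-rtTA+ kidney, and Ly6g had none in the TERT KO saline and actin-rtTA+ kidneys. In i-TERTci kidneys edgeR on all 7 libraries called no marker. Unadjusted p under 0.05 were found for 11 of 11 injured tubule, 14 of 15 macrophage, 9 of 10 fibroblast, 0 of 8 podocyte and 1 of 8 proximal tubule markers. Over all genes tested 22.4% had such a p. DESeq2 called 9, 14 and 8 of the injured tubule, macrophage and fibroblast markers higher, against 8.52% of all genes, and 0 podocyte and 1 proximal tubule marker lower, against 2.38%. Without i-TERTci replicate 2, edgeR called 10, 15 and 9 higher, against 15.1% of all genes, and 1 podocyte and 3 proximal tubule markers lower. Over all 18358 genes tested there, 1548 were lower, so the podocyte count differs from that share by few genes. The part of these cell types in the rise of the mitosis genes was not tested.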

How the data were processed

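RNA of whole kidneys from 20 mice was sequenced in paired-end mode, 1 library per mouse. The p-values therefore set a group difference against the spread between mice, and all groups of a fit share the estimate of that spread. The authors checked reads with FastQC, trimmed them with Trimmomatic, aligned them with STAR to mm10 and deposited raw counts per gene for 55471 genes. The counting tool, its annotation and its use of strand are not given in the sources used here. Gene symbols came from GENCODE, which matched 55144 identifiers (327 did not match). Genes were filtered with filterByExpr, scaled with TMM and tested with the quasi-likelihood F test of edgeR 4.0.16 in R 4.3.3, with Benjamini-Hochberg adjustment over all genes tested and a threshold of 0.05. The fits used 12 libraries of the injury experiment, 7 of the i-TERTci experiment, and all 19 for the contrast across experiments. TERT KO ADR replicate 2 was left out because of its liver markers. Promoters were RefSeq sequences of GRCm38.p6. DESeq2 1.42.0, another normalization, other filters, a replicate block and leaving out each library were tried as alternatives. Simulated 2-fold changes were recovered at 80% for ADR in TERT WT, 50% for ADR in TERT KO and 52% for i-TERTci, over 50 changed genes each. The simulation gave every gene the same spread and held no outlying mouse. For i-TERTci it recovered 94% of 4-fold changes, while the real fit called none of the 39 genes. These rates therefore do not give the power in the real libraries. All 39 genes are named, with values in every library for 10 key genes and for the largest and smallest TERT WT fold change of each role. Of other lists, at most 4 genes with the smallest p in TERT WT are named. A gene that this rule names is not reported here. The members and lists were chosen with earlier results of these data known.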

Additional observations from a re-analysis of the deposited data

Results flagged for a closer look

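In groups of 4 kidneys, the highest or lowest library was compared with the others by Dixon's ratio at its 95% critical value for each of the 39 genes and their sum. Of 80 such tests, 4 passed, and chance alone passes about 1 in 20. Aurkb, the kinase of the chromosomal passenger complex, was higher in TERT WT saline replicate 1 (0.633 CPM) than in the other saline kidneys. Mki67 was lower in actin-rtTA+ replicate 1 (4.38 CPM) than in the other controls. Hmmr, a spindle assembly factor, was at 0.465 CPM in actin-rtTA+ replicate 2, and anillin (Anln) was at 1.64 CPM in actin-rtTA+ replicate 1, each apart from the other controls.

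TERT KO ADR replicate 2, which took part in no group mean, had a summed level of 86.4 CPM over the 39 genes, without a TMM factor. On the same plain scale the highest TERT KO saline kidney was at 53.0 CPM. The lower of the other TERT KO ADR kidneys was at 196.1 CPM on that scale. The liver markers of TERT KO ADR replicate 2 were at 319500 CPM, and their part in its summed level was not tested.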

How the results depend on the processing

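The count of genes higher after ADR in TERT WT was 35 to 38 under every alternative run. The 35 came from the filter of a mean of at least 1 CPM, which kept 36 of the 39 genes. In TERT KO the count was 22 to 38 when a single library was left out, with 22 without TERT KO ADR replicate 3 and 23 without TERT KO saline replicate 1 or replicate 3, and the median log2 fold change then ran from 2.27 to 3.39. The median difference of the ADR effect between genotypes ran from -0.73 to 0.39 with a single library left out. In i-TERTci kidneys DESeq2 gave 37, and leaving out single libraries gave 0 to 37, with 37 only without i-TERTci replicate 2. For ADR minus i-TERTci DESeq2 gave 1, and leaving out single libraries gave 0 to 1. The median of TERT KO minus TERT WT after ADR ran from -0.46 to 0.57 with single libraries left out, and that of ADR minus i-TERTci from -0.04 to 0.82. With TERT KO ADR replicate 2 kept, the median of TERT KO minus TERT WT after ADR was 0.05. That of the difference of the ADR effects was then -0.24. With single libraries left out, the genes with a positive difference numbered 2 to 39 for TERT KO minus TERT WT after ADR, 28 to 38 in saline kidneys, 2 to 34 for the difference of the ADR effects and 17 to 37 for ADR minus i-TERTci, so many single genes turned sign there. Among the values printed, Ect2 after ADR in TERT KO was 0.025 with TERT KO ADR replicate 2 kept and -1.0 to 0.52 with single libraries left out, Ect2 in i-TERTci kidneys -0.087 to 0.248, and Mki67 in the difference between genotypes -0.73 to 0.43. The cause of these shifts was not tested. The correlation of deviations within same-numbered kidneys was 0.047, 0.087 and 0.241 between TERT WT saline and ADR, -0.069 and 0.084 in TERT KO, -0.504, 0.112 and -0.078 between the saline genotypes, 0.519 and 0.398 between the ADR genotypes, which share 2 numbers here, and -0.103, 0.088 and -0.144 in the i-TERTci experiment. The labels do not tie the numbers to a litter or day, so the samples were treated as unpaired. With the replicate block the counts were 38 in TERT WT, 36 in TERT KO and 0 in i-TERTci kidneys, and no call changed. A fit of the compared groups alone was not run for contrasts that need all groups.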
